A study of Mus musculus with 9 samples.

Results

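Bone morphogenetic protein (BMP) ligands, the related growth factor gene Gdf10 and the Id genes, which BMP signals induce, were followed in whole cerebellum of mice with an activated form of Smoothened. The 10 genes are the ligands Bmp2, Bmp4, Bmp5, Bmp6 and Bmp7, then Gdf10, and the targets Id1, Id2, Id3 and Id4. They were taken by name from the array's annotation and are read by 13 of the 24478 probe sets that carry a single gene symbol. Those 24478 probe sets stand for 19147 genes. On GRCm38.p6, Bmp2, Bmp7 and Id1 lie on chromosome 2, Id3 on 4, Bmp5 on 9, Id2 on 12, Bmp6 and Id4 on 13, and Gdf10 (33923587 to 33936514) and Bmp4 (46383525 to 46390669) on 14. Of the 10 genes, 7 were lower in SmoA2 than in wild type cerebellum by the test over all genes, against 1.73% of all genes. Of the 7, only Gdf10 kept its call with any single array left out. None of the 10 was called in Smo/Smo against wild type, where 0.214% of all genes were called higher and 0.157% lower. The 10 were picked with earlier results of these arrays known.

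BMPs are secreted dimers of the transforming growth factor beta superfamily. They bind type I and type II receptor kinases, which phosphorylate Smad1, Smad5 and Smad9. These join Smad4 and raise target genes, with the Id genes among the most direct. Id proteins have a helix-loop-helix but no basic region, so they pair with E proteins and keep them, and the proneural factors that need them, off DNA. In the early postnatal cerebellum, Bmp2 and Bmp4 are known to oppose the division of granule neuron progenitors that Sonic hedgehog drives, and to lower Atoh1 protein. Gdf10 is a known marker of Bergmann glia.

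The 3 groups held 3 mice each, with 1 array per mouse, and all were C57BL/6 at postnatal day 5. SmoA2 mice carry the SmoA2 form of Smoothened, and per the design text this transgene is driven by the part of the Neurod2 (ND2) promoter that works in granule neuron precursors. Smo/Smo is not spelled out in the labels. It is known as a name for mice homozygous for the ND2:SmoA1 transgene, and is used here as the label gives it. Wild type mice were of the same age. The labels give the tissue as brain and the design text as cerebellum, and they do not say whether a group came from 1 founder line. The animal codes of the Smo/Smo group begin differently from the codes that SmoA2 and wild type share, so the source of the animals and the genotype cannot be told apart in comparisons with Smo/Smo.

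Median array intensities lay between 91.0 and 95.1, and 2 arrays stood apart in ways that touch these genes. Wild type replicate 3 had low choroid plexus signal, with a log2 intensity of 4.95 for Ttr, against 11.4 and 11.3 in the other wild type mice. SmoA2 replicate 3 had the lowest array weight in limma (0.386). Probe sets of Y-linked genes in female mice reached a log2 intensity of 5.57, taken here as the upper edge of background. All 10 genes lay above it in every array, with Bmp2 in SmoA2 mice closest to it. Markers of granule neuron progenitors (9 genes, mean log2 11.39 to 11.61) and of Purkinje cells (8 genes, 10.59 to 11.07) were well above it in every array.

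Promoter windows from RefSeq (GRCm38.p6, 250 bases before to 50 after the start) were at hand for 7 of the 10 genes, all but Bmp2, Bmp7 and Id1. They are shown for Id2, Id3 and Id4, for Gdf10, which had the smallest p of the 10, and for Bmp5, the 1 gene whose SmoA2 arrays all stood above wild type. Capitals mark GGCGCC and CAGAC (or GTCTG on the other strand), letters known to be bound by Smad proteins. The Id2 window is chr12:25096043-25096342 on the minus strand, Id3 chr4:136143572-136143871, Id4 chr13:48260866-48261165, Gdf10 chr14:33923337-33923636 and Bmp5 chr9:75775115-75775414, these 4 on the plus strand.
Id2: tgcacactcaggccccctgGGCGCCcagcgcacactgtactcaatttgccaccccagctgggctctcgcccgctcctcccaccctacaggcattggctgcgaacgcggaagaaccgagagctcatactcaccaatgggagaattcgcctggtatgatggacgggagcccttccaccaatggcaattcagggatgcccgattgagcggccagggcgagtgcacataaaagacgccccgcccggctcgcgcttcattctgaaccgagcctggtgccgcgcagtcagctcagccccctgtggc
Id3: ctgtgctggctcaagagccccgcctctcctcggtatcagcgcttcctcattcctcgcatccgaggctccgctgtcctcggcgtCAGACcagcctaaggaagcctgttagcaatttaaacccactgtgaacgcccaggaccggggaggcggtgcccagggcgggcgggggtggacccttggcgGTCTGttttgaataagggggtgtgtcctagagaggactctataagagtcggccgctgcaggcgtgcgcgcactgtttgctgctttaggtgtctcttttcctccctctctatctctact
Id4: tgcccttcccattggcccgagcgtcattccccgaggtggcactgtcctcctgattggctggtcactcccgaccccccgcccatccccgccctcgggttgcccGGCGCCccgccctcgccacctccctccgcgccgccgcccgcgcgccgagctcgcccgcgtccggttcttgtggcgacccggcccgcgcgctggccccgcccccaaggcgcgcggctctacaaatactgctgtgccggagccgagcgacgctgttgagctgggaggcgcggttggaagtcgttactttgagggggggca
Gdf10: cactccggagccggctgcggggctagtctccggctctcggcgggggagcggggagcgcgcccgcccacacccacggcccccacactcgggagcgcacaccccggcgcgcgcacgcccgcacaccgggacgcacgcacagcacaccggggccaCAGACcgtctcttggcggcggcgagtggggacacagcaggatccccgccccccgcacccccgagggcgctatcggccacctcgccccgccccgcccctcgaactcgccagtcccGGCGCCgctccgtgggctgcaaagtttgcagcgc
Bmp5: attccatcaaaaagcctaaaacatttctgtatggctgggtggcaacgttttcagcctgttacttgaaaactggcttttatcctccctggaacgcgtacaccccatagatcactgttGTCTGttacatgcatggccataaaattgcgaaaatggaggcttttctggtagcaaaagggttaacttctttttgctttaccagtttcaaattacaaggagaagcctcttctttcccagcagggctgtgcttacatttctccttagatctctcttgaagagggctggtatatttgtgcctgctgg

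GGCGCC occurred once in the windows of Id2 (first base at -231, counted from 1 at the gene's start, with no 0), Id4 (-148) and Gdf10 (17), and in none of those of Id3, Bmp4, Bmp5 and Bmp6. Of all 32851 windows, 11.9% held it. CAGAC, searched on both strands, occurred at 2 positions in Id3 (-167 and -68) and at 1 each in Gdf10 (-98), Bmp5 (-134) and Bmp6 (-119), with a match in 49.6% of all windows. GACCACCCA, the sequence bound by Gli factors, searched on both strands, was in none of the 7 windows and in 0.253% of all. E-boxes (CANNTG) were found in Bmp4 (3), Bmp6 (2) and Id2 (1), and in 72.3% of all windows. A match is a description of these letters and not a binding site.

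SmoA2 was first set against wild type, to see how ligands and targets differ under the transgene. Bmp2, Bmp6 and Bmp7 fell among the ligands, Gdf10 fell, and Id1, Id3 and Id4 fell among the targets. Among all genes 1.73% were called lower and 0.961% higher, against 7 and 0 of these 10. In 9 of the 10 the SmoA2 and wild type arrays did not overlap, 8 with SmoA2 below and 1 above, against 19.1% of all genes in either direction. The median log2 fold change of the 10 was -0.41, and that of all genes 0.01. The 10 were picked with earlier results of these arrays known, so these shares describe them and are not independent evidence.

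**Figure D1:**
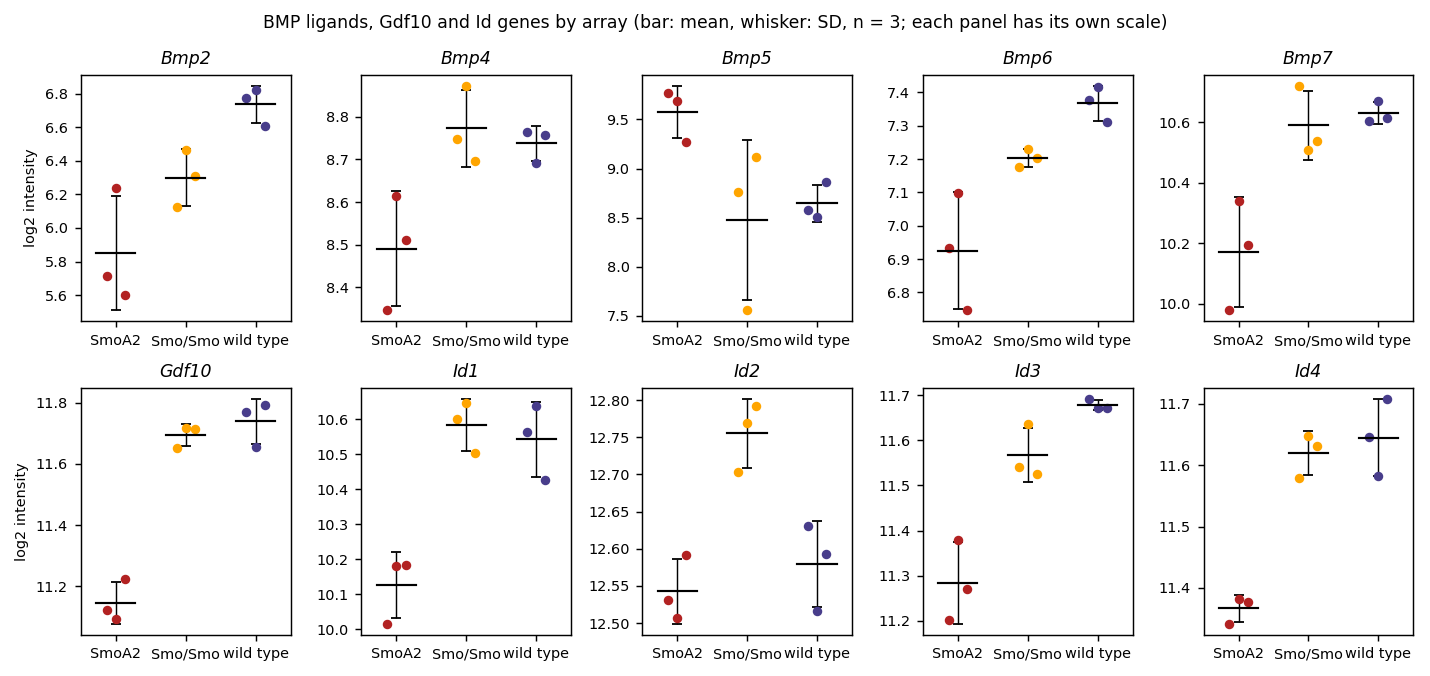
Log2 intensity (y axis) of the 10 genes in each of the 9 arrays, by group (x axis), with the mean as a bar and the SD as a whisker (n = 3). Bmp4, Bmp6, Bmp7, Gdf10, Id1, Id3 and Id4 sit lower in all 3 SmoA2 arrays than in all 6 others, and Bmp5 sits higher.

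Gdf10, a relative of Bmp3, had intensities of 2231, 2185 and 2390.2 in SmoA2 mice, against 3488, 3228 and 3548 in wild type mice. The highest SmoA2 value lay 0.43 on the log2 scale below the lowest wild type value. Gdf10 was 1.51-fold lower in SmoA2 (log2 fold change -0.59, with an SE of 0.06 from 3 mice a group, as for all errors of fold changes below, adjusted p = 0.00156). This was the 1 call of the 10 that held with any single array left out (adjusted p up to 0.0122). Gdf10 is a marker of Bergmann glia, and 3 of 18 other markers of Bergmann glia and astrocytes were called lower with it and none higher. Their summed intensity was 57252 to 58700 in SmoA2, against 61730 to 65028 in wild type, and none of the 18 lay within background on every array. In whole tissue, fewer cells of a type and less RNA per cell cannot be told apart.

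The markers that fell beside Gdf10 were the Wnt inhibitor gene Wif1 (log2 fold change -1.21 ± 0.12), the connexin gene Gjb6 (-0.95 ± 0.13) and the matrix gene Tnc (-0.37 ± 0.07). Wif1 was near background in SmoA2 mice, at log2 intensities of 5.91, 5.64 and 5.39, against the edge of 5.57. The call of Tnc was lost without any 1 of the wild type replicates (adjusted p up to 0.0876). The median log2 fold change of the 18 was -0.14, with 14 below 0 and 4 above 0. SmoA2 and wild type arrays did not overlap in 10 of the 18, against 19.1% of all genes. In 8 of these SmoA2 was below, and in 2, Aldoc and Sox9, it was above without a call. The part that a change in these cells has in the fall of Gdf10 was not tested.

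Id1 had intensities of 1036, 1161 and 1162 in SmoA2 mice, against 1512, 1593 and 1377 in wild type mice. Id3 had 2354, 2663 and 2471, against 3307, 3262 and 3264 in wild type, and Id4 had 2596, 2668 and 2659, against 3204, 3065 and 3344. Each SmoA2 value of these 3 genes was below each wild type value. Id1 was thus 1.33-fold lower (a log2 difference of -0.42 ± 0.08, adjusted p = 0.0252) and Id3 1.31-fold lower (-0.39 ± 0.06, adjusted p = 0.0124). The fall of Id4 was 1.21-fold (-0.28 ± 0.06, adjusted p = 0.0342). Id2 had 5917, 5821 and 6172 in SmoA2, against 6339.9, 5860.5 and 6175 in wild type, and its groups overlapped. Its log2 fold change was -0.04 ± 0.06 (adjusted p = 0.82), with a 95% interval of the difference of -0.17 to 0.09.

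The Id calls leaned on single arrays. Id1 was no longer called without wild type replicate 1 (adjusted p = 0.102), wild type replicate 2 (0.0958) or SmoA2 replicate 1 (0.0767). For Id3 the call ended when replicate 1 (0.0601) or replicate 2 (0.0517) of wild type was dropped. Id4 lost its call without any 1 of the 9 arrays (0.0563 to 0.128). Its log2 fold change with its 2 probe sets averaged was -0.04 (adjusted p = 0.846). The dimmer Id4 probe set, which is close to background, had 73.2, 67.9 and 67.6 in SmoA2, against 63.9, 56.7 and 60.7 in wild type (log2 fold change 0.20 ± 0.08, adjusted p = 0.312). The 2 probe sets of Id4 thus differed in sign, and the fall of Id4 rests on the brighter one.

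Bmp2, a close relative of Bmp4, had intensities of 52.4, 75.4 and 48.5 in SmoA2 mice, against 109.5, 113 and 97.6 in wild type mice. SmoA2 replicate 2 was the highest of its group and still below every wild type array. Bmp2 was thus 1.85-fold lower (a log2 difference of -0.89 ± 0.16, adjusted p = 0.0206), with SmoA2 values near background. Bmp4 had 325, 392 and 365 in SmoA2, against 435, 413 and 432 in wild type. Its groups did not overlap, but it was not called (log2 fold change -0.25 ± 0.08, adjusted p = 0.179).

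Bmp6 and Bmp7 belong, with Bmp5, to another branch of the family, and Bmp7 is known to be made by meninges. Bmp6 had intensities of 122, 137 and 107 in SmoA2 mice, against 166, 171 and 159 in wild type mice. Bmp7 had 1009, 1296 and 1171 in SmoA2, against 1558, 1632 and 1567 in wild type. In both genes all SmoA2 arrays were below all wild type arrays, with SmoA2 replicate 2 the highest of its group. Bmp6 was thus 1.36-fold lower (a log2 difference of -0.44 ± 0.09, adjusted p = 0.0293) and Bmp7 1.38-fold lower (-0.46 ± 0.10, adjusted p = 0.0409). The dimmer Bmp7 probe set had 148, 190.1 and 181 in SmoA2, against 229, 233 and 214 in wild type, with a log2 fold change of -0.39 ± 0.11 that was not called (adjusted p = 0.132).

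The ligand calls also leaned on single arrays. Bmp2 was no longer called without wild type replicate 1 (adjusted p = 0.0831), wild type replicate 2 (0.0900), SmoA2 replicate 1 (0.0739) or SmoA2 replicate 3 (0.0637). Bmp6 kept its call only without SmoA2 replicate 2 or SmoA2 replicate 3, and had adjusted p from 0.0514 to 0.109 without any 1 of the other 7 arrays. Bmp7 kept its call only without SmoA2 replicate 2 or Smo/Smo replicate 1, with 0.0635 to 0.133 otherwise. Gdf10 was the 1 gene of the 10 still called when the 2 arrays that stand apart were dropped together. In a fit of SmoA2 and wild type arrays alone, Gdf10 kept its call (0.0139), Bmp5 gained one (0.0401) and the other 6 lost theirs (0.0515 to 0.112). All log2 fold changes of these 3 ligands stayed below 0 in these fits. By Xist and Y-linked genes, 2 of 3 SmoA2 mice and 1 of 3 wild type mice were male, and with sex as a covariate Bmp6 (0.0565), Bmp7 (0.0701) and Id4 (0.0772) were no longer called. Bmp7 was also not called with its probe sets averaged (0.0620), and neither Bmp7 (0.0513) nor Id4 (0.0775) with arrays centred on their medians.

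Bmp5 differed from the other ligands in sign. Its brighter probe set had 876, 823 and 619.7 in SmoA2 mice, against 381, 364 and 464 in wild type mice, and its dimmer one 287, 248 and 256, against 129.7, 128 and 112. On both, every SmoA2 array was above every wild type array. On the brighter set the log2 fold change was 0.93 ± 0.34 and not called (adjusted p = 0.233). The dimmer one was 2.14-fold higher (1.10 ± 0.18, adjusted p = 0.0139 with every probe set tested on its own). The error of the brighter set is pooled over all 3 groups, and the Smo/Smo arrays were spread widely in it (433, 188 and 554). Without Smo/Smo replicate 2 the brighter set was called (adjusted p = 0.0266).

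**Figure D2:**
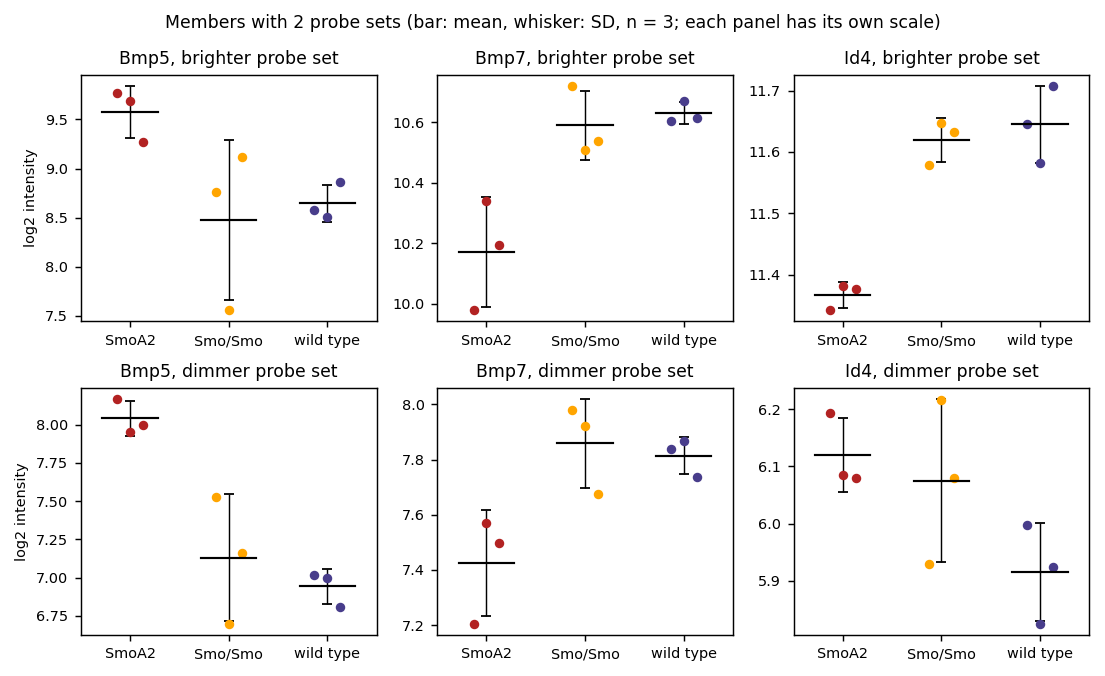
Log2 intensity (y axis) in each array by group (x axis) for the 3 genes with 2 probe sets, brighter set above and dimmer set below, with mean and SD (n = 3). Both Bmp5 sets are higher and both Bmp7 sets lower in SmoA2 than in wild type, while the 2 Id4 sets differ in direction.

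Markers of the meninges were read beside the ligands. Of 16 measured, 8 were called lower in SmoA2 and none higher. Among the 8 were the retinoic acid enzyme gene Aldh1a2 (log2 fold change -1.57 ± 0.15) and the transporter gene Slc22a6 (-1.42 ± 0.12). Of the 16, 14 had a log2 fold change below 0 and 2 above 0 (Lum and Mgp). SmoA2 and wild type arrays did not overlap in 12, with SmoA2 below in 11 and above in 1 (Lum), against 19.1% of all genes. The summed intensity of the 16 was 13117 to 15766 in SmoA2, against 18183 to 18738 in wild type, and none of the 16 lay within background on every array. Their mean log2 intensity was 8.79, 9.21 and 8.95 in SmoA2 replicates 1, 2 and 3. Replicate 2 was the highest of its group in these markers, in Bmp2, Bmp4, Bmp6 and Bmp7, and likewise in Id3 and Id4. The lowest was replicate 1 in these markers, Bmp4 and Bmp7, and replicate 3 in Bmp2 and Bmp6. Of the 8 calls, 3 held whichever array was dropped (Aldh1a2, Slc22a6 and Slc6a13). Without wild type replicate 3, 3 of the 16 fell. Of 14 endothelial and mural markers 2 fell, Tek and Kdr. Tek kept its call only when Smo/Smo replicate 1 or SmoA2 replicate 3 was dropped (reaching 0.126 otherwise), and Kdr in none of the 9 fits that dropped 1 array (up to 0.125). Of the 14, 9 had a log2 fold change below 0 and 5 above 0. In 5 of them all SmoA2 arrays were below all wild type arrays, against 19.1% of all genes without overlap in either direction. The summed intensity of the 14 was 8322 to 8777 in SmoA2, against 9510 to 9623 in wild type. The part that these cells have in the ligand values was not tested.

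Choroid plexus is another known source of BMPs. Of its 11 markers limma called 0 in SmoA2, with 10 at an unadjusted p under 0.05 and a median log2 fold change of 1.43. Their summed intensity was 8790 to 10392 in SmoA2, against 2051 to 6609 in wild type, where the lowest value is that of replicate 3. Without that array, 6 of the 11 were called higher and the median was 0.66. Bmp4 and Bmp7 in wild type replicate 3 had 432 and 1567, between the values of the other wild type mice, 413 and 435 for Bmp4 and 1558 and 1632 for Bmp7. Bmp2 (97.6, against 109.5 and 113) and Bmp6 (159, against 166 and 171) were lowest there among wild type mice. So were the dimmer probe sets of Bmp7 (214, against 229 and 233) and Bmp5 (112, against 129.7 and 128). The brighter Bmp5 set was highest there (464, against 381 and 364). Gdf10, Bmp2, Id1 and Id3 were still called without wild type replicate 3, and Bmp6 (adjusted p = 0.0656), Bmp7 (0.102) and Id4 were not. The part that choroid plexus has in the ligand values was not tested.

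**Figure D3:**
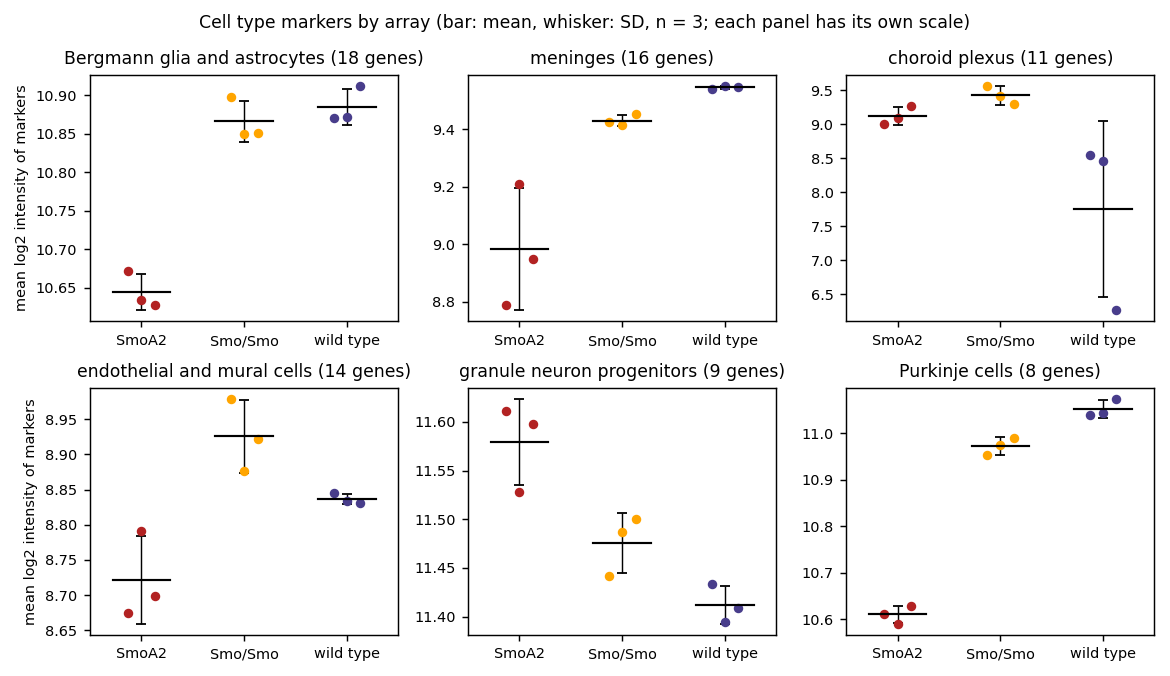
Mean log2 intensity of the markers of 6 cell types (y axis) in each array by group (x axis), with mean and SD (n = 3). The means for Bergmann glia, meninges, endothelium and Purkinje cells are lower in SmoA2 than in wild type, though not every single marker is. The mean for choroid plexus is lowest in wild type replicate 3.

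The other genes of the BMP pathway were read as a list of their own. Of 47 other measured ligands, receptors, Smads, antagonists, inhibitors and targets, limma called 0 in SmoA2 against wild type, with 9 at an unadjusted p under 0.05 and a median log2 fold change of -0.02. Among all genes 14.8% had such a p, and 9 of 47 is near that share. Of 10 other ligands, 6 lay within background on every array. The smallest p among them was that of Gdf6 (log2 fold change 0.44 ± 0.13, adjusted p = 0.139), which is one of those 6. Of 10 receptors and co-receptors 0 were called and 1 had an unadjusted p under 0.05, the co-receptor gene Rgmb (0.32 ± 0.08, adjusted p = 0.0739). Of 4 Smad genes 0 were called and 1 had an unadjusted p under 0.05, Smad9, which encodes a BMP receptor substrate (-0.41 ± 0.11, adjusted p = 0.0915).

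Of 14 secreted antagonists and modulators 0 were called in SmoA2 against wild type, with 5 at an unadjusted p under 0.05. SmoA2 and wild type arrays did not overlap in 5 of the 14, against 19.1% of all genes. In 4 of these (Chrd, Chrdl2, Fst and Nbl1) SmoA2 was below, and in 1 (Sostdc1) it was above. The antagonist gene noggin (Nog), named after its values were seen, lay within background on every array. Sostdc1, an antagonist that choroid plexus makes, gave 1.38 ± 0.45 in SmoA2 (adjusted p = 0.186) and 1.72 ± 0.45 in Smo/Smo (adjusted p = 0.247), each against wild type. It is also among the 11 choroid plexus markers. The size and error of both values depend on wild type replicate 3, at a log2 intensity of 6.81, against 8.85 and 8.83 in the other wild type mice. Without that array Sostdc1 gave 0.70 ± 0.08 in SmoA2 (adjusted p = 0.00694) and 1.05 ± 0.08 in Smo/Smo (adjusted p = 0.00219), and in each comparison 1 of the 14 was called. Of 9 inhibitors and other targets of the pathway 0 were called and 0 had an unadjusted p under 0.05 in SmoA2. The homeobox target Msx1 had the smallest p in any comparison (0.41 ± 0.14 in Smo/Smo against wild type, adjusted p = 0.430).

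**Figure D4:**
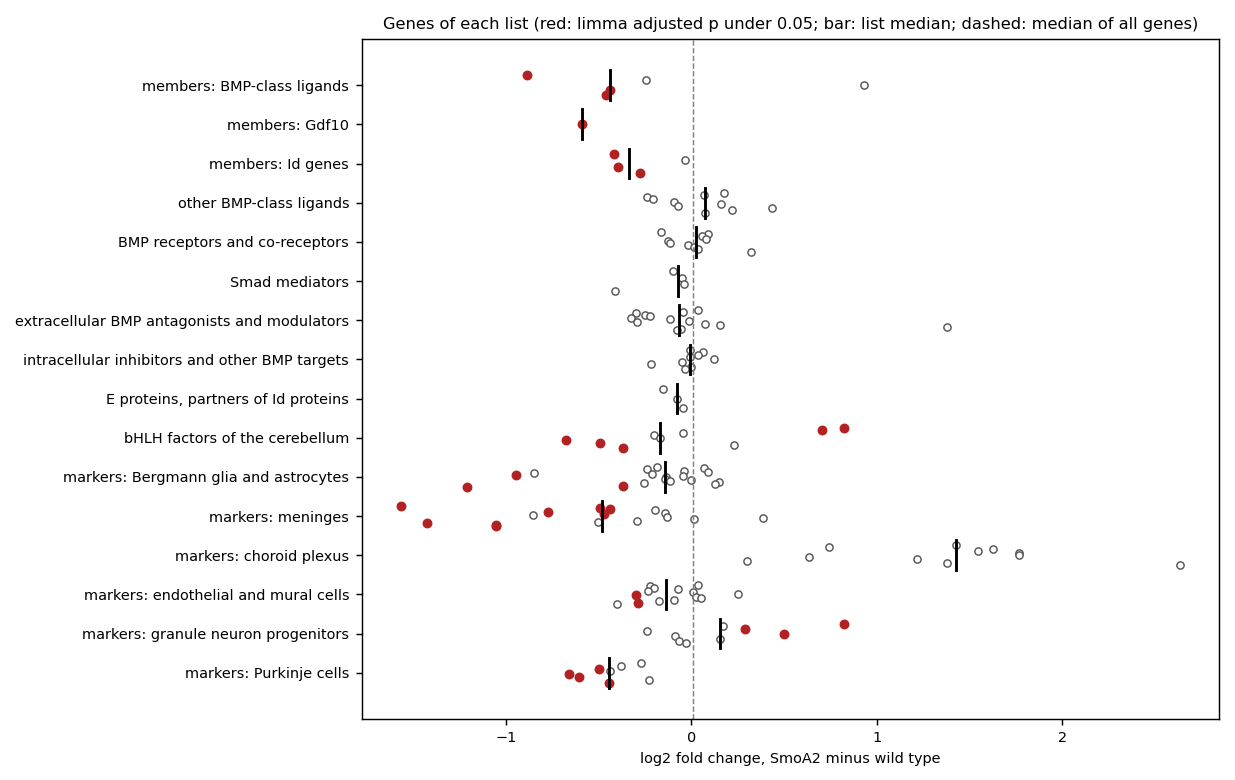
Log2 fold change of SmoA2 minus wild type (x axis) for each gene of the lists (rows), with called genes in red, list medians as bars and the median of all genes as a dashed line. Called genes stand in the rows of these 10 genes, of basic helix-loop-helix factors and of cell type markers, and none stands in the rows of other BMP ligands, receptors, Smads, antagonists and inhibitors.

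Partners of the Id proteins were read beside them. The 3 E protein genes Tcf3, Tcf4 and Tcf12 were not called by limma in SmoA2, with 1 at an unadjusted p under 0.05, Tcf12 (log2 fold change -0.15 ± 0.06, adjusted p = 0.269). Of 9 helix-loop-helix factors of the cerebellum, 2 rose and 3 fell. Atoh1, which granule neuron progenitors need, rose by 0.82 ± 0.07 on the log2 scale (adjusted p = 0.000703), and the repressor gene Hes1 0.71 ± 0.06 (adjusted p = 0.000506). Neurog1 gave -0.68 ± 0.06, Neurog2 -0.49 ± 0.08 and Ptf1a, which GABAergic neurons need, -0.37 ± 0.08. Ptf1a kept its call only when wild type replicate 1 was the array dropped (adjusted p up to 0.148 in the other 8 fits). Atoh1 is also among 9 markers of granule neuron progenitors, of which 3 rose and none fell by the test (Atoh1, Gli1 and Boc). Of the other 6, 4 had a log2 fold change below 0, and in 3 of them (Ccnd2 at -0.24 ± 0.06, Pax6 and Gli2) all SmoA2 arrays were below all wild type arrays without a call. Boc, at 0.29 ± 0.06, was no longer called in 8 of 9 fits that dropped 1 array (adjusted p up to 0.130).

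The other mutant, Smo/Smo, was then set against wild type. None of the 10 genes was called by limma, 2 had an unadjusted p under 0.05 (Bmp2 and Id2), as had 8.77% of all genes, and the median log2 fold change of the 10 was -0.04. Among all genes 0.214% were called higher and 0.157% lower. Groups did not overlap in 4 of the 10, against 15.9% of all genes. Bmp2 had 69.7, 88.3 and 79.5 in Smo/Smo mice, against 109.5, 113 and 97.6 in wild type mice, all 3 lower (log2 fold change -0.44 ± 0.16, adjusted p = 0.470). Bmp6 (-0.16 ± 0.09, adjusted p = 0.652) and Id3 (-0.11 ± 0.06, adjusted p = 0.692) were also below wild type in all 3 arrays without a call.

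Id2 had 6669.6, 6983 and 7094 in Smo/Smo mice, all above the 6339.9, 5860.5 and 6175 of wild type mice, with a log2 fold change of 0.18 ± 0.06 that was not called (adjusted p = 0.404). Gdf10 had 3222, 3367 and 3361 in Smo/Smo, within the wild type range of 3228 to 3548 but for 1 array just below it. Its log2 fold change was -0.04 ± 0.06 (adjusted p = 0.906), with a 95% interval of -0.18 to 0.10. For Id1 (0.04 ± 0.08, interval -0.13 to 0.22) and Id4 (-0.03 ± 0.06, interval -0.15 to 0.10) the intervals likewise leave room for small changes. Bmp4 (0.04 ± 0.08) and Bmp7 (-0.04 ± 0.10) lay near 0, and Bmp5 gave -0.17 ± 0.34, with its arrays from 188 to 554.

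SmoA2 was last set against Smo/Smo directly, which tests the difference between the 2 mutants. Among all genes 1.02% were called higher and 1.54% lower. Of the 10 genes 2 were called, both lower in SmoA2, and all 10 had an unadjusted p under 0.05, as had 14.3% of all genes. Groups did not overlap in 9 of the 10, with SmoA2 below in 8 and above in 1 (Bmp5), against 18.2% of all genes. Gdf10 had 2231, 2185 and 2390.2 in SmoA2, against 3222, 3367 and 3361 in Smo/Smo, and was thus 1.46-fold lower (a log2 difference of -0.55 ± 0.06, adjusted p = 0.00282). Id1 had 1036, 1161 and 1162 in SmoA2, against 1554, 1604 and 1451 in Smo/Smo, and was 1.37-fold lower (-0.46 ± 0.08, adjusted p = 0.0183). The call of Gdf10 held with any single array left out. That of Id1 was lost without SmoA2 replicate 1 (adjusted p = 0.0633), Smo/Smo replicate 1 (0.0735) or Smo/Smo replicate 2 (0.0874).

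Id4 (log2 fold change -0.25 ± 0.06, adjusted p = 0.0519), Id3 (-0.28 ± 0.06, 0.0532) and Bmp7 (-0.42 ± 0.10, 0.0585) came close to the threshold. Without SmoA2 replicate 2, Bmp2 (-0.64, adjusted p = 0.0275), Bmp7 (-0.50, 0.0327) and Id3 (-0.33, 0.0390) were called as well. Id2 gave -0.21 ± 0.06 (adjusted p = 0.107), with 5917, 5821 and 6172 in SmoA2, all below the 6669.6, 6983 and 7094 of Smo/Smo. Bmp4 (-0.28 ± 0.08, adjusted p = 0.121), Bmp6 (-0.28 ± 0.09, 0.158) and Bmp2 (-0.45 ± 0.16, 0.224) were not called. Bmp5 gave 1.10 ± 0.34 on its brighter probe set (adjusted p = 0.157) and 0.91 ± 0.18 on its dimmer one, which was called (0.0342). For the 47 other pathway genes limma made 0 calls here, with 9 at an unadjusted p under 0.05. Of the helix-loop-helix factors, Atoh1 (0.70 ± 0.07) and Hes1 (0.48 ± 0.06) were higher and Neurog1 (-0.37 ± 0.06) and Ptf1a (-0.38 ± 0.08) lower in SmoA2. Neurog1 lost its call without SmoA2 replicate 1 or any 1 of the Smo/Smo arrays (adjusted p up to 0.0755), and Ptf1a in all such fits but that without wild type replicate 1 (up to 0.165). Marker lists differed here too, with 1.54% of all genes called lower and 1.02% higher. Lower in SmoA2 were 3 of 18 markers of Bergmann glia and astrocytes, 5 of 16 of meninges, 4 of 14 of endothelial and mural cells and 3 of 8 of Purkinje cells, and none of these lists had a call in the other direction. Log2 fold changes above 0 numbered 2, 2, 3 and 0 in those lists, in the same order. Higher were 2 of 9 markers of granule neuron progenitors, and none of the 9 was lower by the test. Of the 9, though, 4 had a log2 fold change above 0 and 5 below 0. All SmoA2 arrays were above all Smo/Smo arrays in 4 of the 9 and below them in 3, against 18.2% of all genes without overlap. Calls that held whichever array was dropped numbered 1 for Bergmann glia and astrocytes (Wif1), 3 for meninges (Aldh1a2, Slc22a6 and Slc6a13), 1 for endothelial and mural cells (Slco1c1), 0 for Purkinje cells and 1 for granule neuron progenitors (Atoh1). The other calls of these lists were each lost in at least 2 of the 9 fits (adjusted p up to 0.172). Their part in these differences was not tested.

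**Figure D5:**
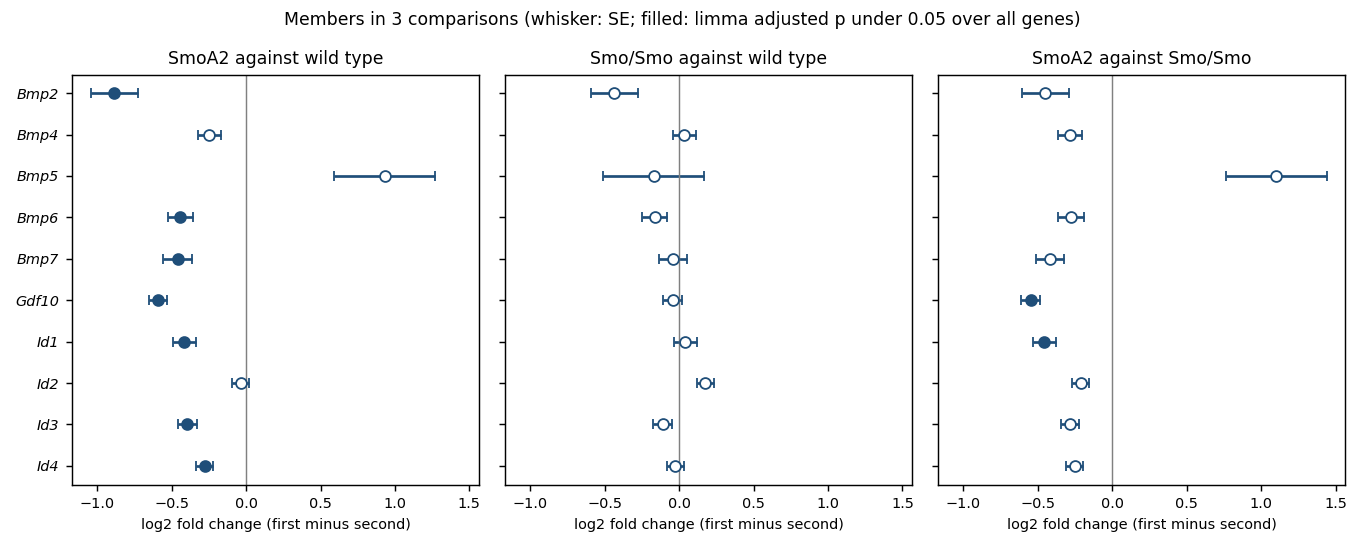
Log2 fold change (x axis, first group minus second) with its SE for the 10 genes (rows) in the 3 comparisons, filled where limma's adjusted p over all genes is under 0.05. Filled points stand for 7 genes in SmoA2 against wild type, 0 in Smo/Smo against wild type and 2 in SmoA2 against Smo/Smo.

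The orders of group levels among the 10 genes are given as a description of overlap between arrays, whether called or not. In Gdf10, Id1, Id4, Bmp4 and Bmp7 the SmoA2 arrays were lowest, while Smo/Smo and wild type overlapped. In Bmp6 and Id3 the 3 groups were separate, with SmoA2 lowest, Smo/Smo between and wild type highest. Neither was called by limma in Smo/Smo against wild type (adjusted p = 0.652 and 0.692) or in SmoA2 against Smo/Smo (0.158 and 0.0532). Groups did not overlap in 15.9% and 18.2% of all genes in these comparisons. In Bmp2 the order of means was the same, but SmoA2 and Smo/Smo overlapped. In Id2 Smo/Smo stood above both other groups, which overlapped, and in Bmp5 SmoA2 stood above both other groups, which overlapped.

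Genes whose log2 values ran most like each called gene over the 9 arrays are given as a description, since the arrays fall into 3 groups that set much of each correlation. For Gdf10 they were Efhd1, Dmrta1 and Zfp385c (Pearson r from 0.987 to 0.989). For Bmp6 they were the collagen gene Col1a1 (r = 0.983), Dpp10 (0.980) and Camk2a (0.973). For Bmp7 they were the forkhead factor gene Foxc1 (r = 0.973), Pgm1 (0.973) and Clstn2 (0.971). By rank, the Spearman correlation with Bmp7 was 0.77 for Foxc1, 0.93 for Pgm1 and 0.98 for Clstn2. For Bmp2 they were Dop1b, Wnt3 and Rnf182 (r from 0.975 to 0.978). For Id1 they were Fez2 (r = 0.995), Ppargc1a and Skap2. For Id3 they were Adcy2, B3gat1 and the connexin gene Gjb2 (r from 0.980 to 0.983), and for Id4 Jcad, Dab1 and Pdgfc (r from 0.983 to 0.986). Col1a1 and Foxc1 are also among the 16 meningeal markers, and Dab1 is among the 8 Purkinje cell markers. Of those 8, 4 fell in SmoA2 against wild type and none rose (Pcp2, Lhx5, Rora and Dab1), though single arrays decided some of these calls. Dropping SmoA2 replicate 1, or replicate 1 or 2 of wild type, ended that of Pcp2 (adjusted p up to 0.0657). Dropping replicate 1 or 2 of wild type ended that of Rora (up to 0.0565).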

How the data were processed

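RNA from 9 mice was measured on custom Affymetrix arrays. The deposited values are probe set intensity on a linear scale, summarised by the authors with RMA per the submitters' processing notes, which give no version. RMA corrects background and normalizes between arrays, so a shift shared by all genes cannot be seen. Log2 of each value was taken. Each gene was represented by its brightest probe set, by mean log2 over the 9 arrays (GEO platform annotation), others being given beside it. All 19147 genes were fitted in 1 model with limma 3.58.1 (lmFit, eBayes) in R 4.3.3, with 3 group means. A call means an adjusted p (Benjamini-Hochberg, all genes) under 0.05. The fit was tested on simulated data. Figures used matplotlib 3.10.9. The members and lists were chosen with earlier results of these data known. Named beside the members were the called genes of each pathway list, or the 1 with the smallest p, and the 3 genes most correlated with each called member, clone names left out. Of 68 genes on the pathway lists, 59 were measured. Alternatives were averaged probe sets, all probe sets tested singly, a filter at a mean log2 of 6, quantile normalization, median centring, trend with robust eBayes, array weights, only the groups compared, sex (called from Xist and Y-linked genes) as a covariate, a threshold of 0.01, and leaving out arrays.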

Additional observations from a re-analysis of the deposited data

Results flagged for a closer look

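Gdf10 and Id1 were singled out because the 2 mutants differed in them by a direct test. The log2 difference of SmoA2 minus Smo/Smo was -0.55 for Gdf10 (limma, adjusted p = 0.00282, lower in all 3 SmoA2 arrays than in all 3 Smo/Smo arrays) and -0.46 for Id1 (adjusted p = 0.0183, lower in all 3 as well).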

How the results depend on the processing

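Each value of the 10 genes was recomputed under 20 alternatives per comparison, 600 values in all. No called value changed sign, 61 calls were lost and 15 gained. Several alternatives, such as the threshold of 0.01, the filter and the trend, cannot change a log2 fold change, so the sign was fixed in advance there. Where probe sets were tested singly, only the brightest set of a gene entered these counts. The dimmer sets of Id4 and Bmp5 did not. In SmoA2 against wild type, 7 genes were called, against 2 (Gdf10, and Bmp5 in the higher direction) in a fit of only the 2 groups compared, 4 (Bmp2, Gdf10, Id1 and Id3) with sex as a covariate, 1 (Gdf10) at an adjusted p under 0.01, and 1 (Gdf10) when the third array of both groups was dropped. Leaving out 1 array gave 1 to 6. In SmoA2 against Smo/Smo, 2 were called, against 6 among genes with a mean log2 of at least 6, 6 with an intensity trend and robust eBayes, 4 with array weights and 1 at 0.01. Leaving out 1 array gave 1 to 5. In Smo/Smo against wild type all 20 alternatives gave 0 calls. Over all genes, SmoA2 against wild type had 515 calls, against 776 with the filter on low values, 235 with only the 2 groups and 187 at 0.01. SmoA2 against Smo/Smo had 490, against 809, 231 and 142, and 795 with the trend. Smo/Smo against wild type had 71, against 162 with array weights, 42 with only the 2 groups, 42 with sex and 19 at 0.01. Leaving out 1 array lowered these to 234, 170 and 21 at the least. The filter tested fewer genes and the smaller fits held fewer arrays, but the causes of the changed counts were not tested. Median centring and averaged probe sets each left 5 calls, without Bmp7 and Id4. No paired analysis was possible because the labels give no replicate numbers that groups share. Signal near background limits Bmp2, the dimmer Id4 probe set and the marker Wif1.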
